A study of Mus musculus with 9 samples.

Results

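The 10 genes described here are acute phase genes of the liver, inducible and constitutive, and the feedback inhibitor Socs3: Saa1, Saa2, Saa3 and Saa4 (the serum amyloid A family), Orm1, Orm2 and Orm3 (the orosomucoids), Lcn2 (lipocalin 2), Hp (haptoglobin) and Socs3. They were chosen by symbol from the deposited table, where all 10 were found among 21936 genes, and all 10 belonged to the 13817 genes with enough signal to be tested. The table came from livers of wild-type male C57BL/6 mice, bought at 9 weeks of age and kept for 1 week before the diets. In the HGPP group, mice ate a diet lacking methionine and choline for 4 weeks and received, at 300 mg/kg, the polysaccharides of the herb Gynostemma pentaphyllum by gavage in CMC-Na at 0.5%, the higher of the study's doses. In the MCD group, mice ate the same deficient diet and received the CMC-Na vehicle alone. In the MCS group, mice ate a diet with methionine and choline supplied, and received the vehicle too. Each group had 3 livers with 1 library each, sampled from the right lobe. The MCD diet causes steatohepatitis together with weight loss, which limits it as a model of the human disease, and HGPP was given only on the deficient diet, so its effect on the sufficient diet was not measured. The comparison of MCD with MCS asks what the diet changed, and that of HGPP with MCD asks what the polysaccharides changed on that diet.

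The acute phase response is the change in what hepatocytes secrete during inflammation. Cytokines of the interleukin 6 family bind receptors that share gp130, the JAK kinases phosphorylate STAT3, and STAT3 together with C/EBP factors and, after interleukin 1 or tumour necrosis factor, NF-kB raises transcription of positive acute phase genes. SOCS3 is induced by STAT3 and binds gp130 and the JAKs, which closes the loop. SAA1 and SAA2 are apolipoproteins of high density lipoprotein, SAA3 is made by macrophages and many other cells as well as hepatocytes in mice, and SAA4 is the constitutive form. Orosomucoid binds drugs and damps immune reactions, lipocalin 2 takes up bacterial siderophores and so withholds iron, and haptoglobin binds free haemoglobin.

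The sequences just upstream of the start sites show how alike the members of a family are and which regulatory words they hold. RefSeq (GRCm38.p6) gave a promoter window of 300 bases, 250 before and 50 after the start, for 8 of the 10 members, and not for Orm1 and Hp. The 250 bases before the start are given for Saa1 and Saa2, which are near copies, and for Saa4, Orm2, Lcn2 and Socs3, which are 4 of the 5 members called in a comparison below, 5′ to 3′ on the strand of the gene. Capitals mark matches to the words searched, which were a C/EBP element (TTGCNNAA), a STAT element (TTCNNNGAA), a type 2 interleukin 6 element (CTGGGAA), an NF-kB element (GGANTTTCC) and a TATA box (TATAAA), each on both strands and with no overlap between matches.
Saa1 (chr7:46742981-46743230, - strand): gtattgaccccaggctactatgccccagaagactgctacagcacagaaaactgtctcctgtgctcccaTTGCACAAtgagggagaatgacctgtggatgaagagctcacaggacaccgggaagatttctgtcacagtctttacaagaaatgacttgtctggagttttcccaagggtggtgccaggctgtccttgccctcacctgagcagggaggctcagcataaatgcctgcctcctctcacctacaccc
Saa2 (chr7:46751583-46751832, + strand): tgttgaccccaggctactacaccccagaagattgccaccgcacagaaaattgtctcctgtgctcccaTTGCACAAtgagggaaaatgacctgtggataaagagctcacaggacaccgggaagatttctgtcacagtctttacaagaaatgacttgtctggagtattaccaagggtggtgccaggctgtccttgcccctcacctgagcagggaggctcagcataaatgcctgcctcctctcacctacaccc
Saa4 (chr7:46732604-46732853, - strand): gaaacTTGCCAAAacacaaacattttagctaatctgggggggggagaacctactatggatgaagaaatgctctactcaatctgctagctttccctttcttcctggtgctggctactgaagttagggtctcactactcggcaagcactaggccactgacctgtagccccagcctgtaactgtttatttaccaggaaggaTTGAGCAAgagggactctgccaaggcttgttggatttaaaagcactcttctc
Orm2 (chr4:63362199-63362448, + strand): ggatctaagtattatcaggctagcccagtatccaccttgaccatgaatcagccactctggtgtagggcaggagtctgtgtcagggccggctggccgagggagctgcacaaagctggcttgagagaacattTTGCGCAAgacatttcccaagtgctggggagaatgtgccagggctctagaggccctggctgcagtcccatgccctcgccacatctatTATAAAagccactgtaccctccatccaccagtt
Lcn2 (chr2:32387740-32387989, - strand): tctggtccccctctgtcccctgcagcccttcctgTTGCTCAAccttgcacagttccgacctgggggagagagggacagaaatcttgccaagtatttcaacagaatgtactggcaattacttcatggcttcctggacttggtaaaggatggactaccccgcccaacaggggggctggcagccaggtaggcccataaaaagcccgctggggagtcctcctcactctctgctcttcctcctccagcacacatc
Socs3 (chr11:117969367-117969616, - strand): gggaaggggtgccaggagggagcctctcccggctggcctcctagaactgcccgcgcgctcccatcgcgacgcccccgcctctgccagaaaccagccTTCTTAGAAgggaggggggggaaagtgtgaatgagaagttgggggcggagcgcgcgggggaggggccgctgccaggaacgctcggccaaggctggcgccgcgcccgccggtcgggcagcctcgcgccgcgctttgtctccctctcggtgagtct

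The C/EBP word was in 7 of the 8 windows, in all but that of Socs3, against 10.8% of the 32851 promoters of the reference. It stood within 1 base of the same place in Saa1 and Saa2, and likewise in Orm2 and Orm3. The STAT word was in Socs3 only (8.298% of all promoters), the type 2 interleukin 6 word in Orm3 only (11.14%), and TATAAA in Orm2 and Orm3 only (13.62%). No window held the NF-kB word, which 1.254% of all promoters held. Only this exact spelling was searched, so NF-kB sites spelled otherwise would not be found. These matches are letters in a window, and binding was not measured. The windows of Saa1 and Saa2 were 96.0% identical and those of Orm2 and Orm3 89.2%, whereas that of Saa3 was 65.1% identical to that of Saa1.

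**Figure D1:**
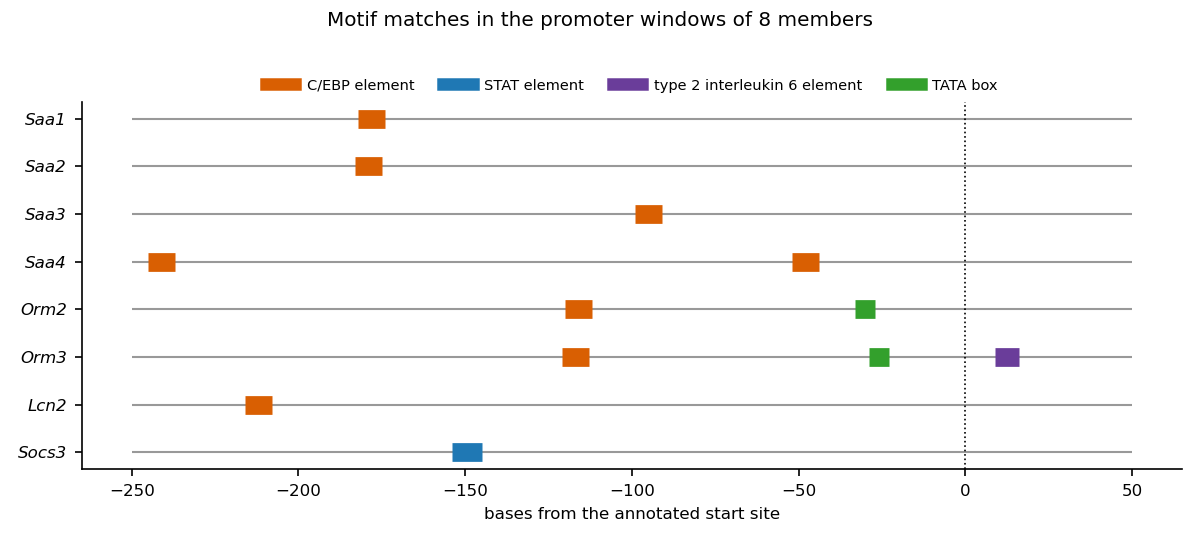
Positions of the matched words in the promoter windows of 8 members, in bases from the annotated start site (dotted line, at 0), with 1 line per gene and 1 colour per word. The C/EBP word lies in 7 of the 8 windows, and the STAT word in that of Socs3 only.

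Expression was given as FPKM, fragments per kilobase of gene scaled to library size, so that levels are per length. Libraries held between 11492654 and 18902846 fragments, and the members rested on 19 fragments (the lowest Orm3 value) to 99834 (the highest Hp value) per library. The length used for a gene was the union of all its annotated exons. For Saa1 this was 2478 bases, 4.07 times the 609 bases of its principal transcript, and for Saa2, Saa3 and Lcn2 it was 4.16, 4.70 and 2.87 times, while for Saa4 and the 3 orosomucoids it equalled it, and for Hp and Socs3 it was 1.19 and 1.13 times. The FPKM of Saa1, Saa2, Saa3 and Lcn2 is therefore low relative to the others by these factors, and comparisons of 1 gene between groups are not touched. The coding sequences of Saa1 and Saa2 were 95.1% identical and those of Orm1 and Orm2 89.9%, and 6.95% of the windows of 100 bases in the transcripts of Orm1 and Orm2 were shared exactly between them. How fragments of such copies were divided is uncertain, so the split within these pairs is less certain than their sum.

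Some features of the libraries touch the members. The median gene was higher in both deficient groups: by 0.40 on the log2 scale in MCD and by 0.33 in HGPP, each against MCS. Rescaling every library by the median of its ratios to the typical library reduced these shifts to 0.02 and 0.01, and member values under that scaling are given beside the main ones. MCS replicate 1 stood apart from the other MCS livers, with the highest values of Saa1, Saa2, Saa3, Orm1 and Orm2 in its group and a summed level of 10 macrophage markers of 210 FPKM, against 63.6 and 66.5 FPKM in the other MCS livers. MCD replicate 1 had the lowest Saa1, Saa2, Orm1, Orm2, Orm3 and Lcn2 values of its group. Its macrophage sum was 237 FPKM, against 1210 and 777 FPKM in the other MCD livers. Where leaving out either library changed a call, the value without it is given. Both libraries were singled out by their member values, so leaving either out shifts those members in a direction set beforehand. Calls gained in that way show dependence on 1 liver and are no support for a difference.

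Groups were compared with limma, which fits a linear model to each gene's log2(FPKM + 0.1) and moderates its variance by that of all genes, and p-values were adjusted over all 13817 genes. Lcn2 had the smallest adjusted p of the 10 genes in each comparison. It measured 50.5, 41.3 and 51.8 FPKM in HGPP livers, 94.6, 189 and 116 FPKM in MCD livers and 15.8, 14.9 and 9.38 FPKM in MCS livers. The 3 groups did not overlap, with every HGPP liver between the lowest MCD liver and the highest MCS liver. Against MCS, Lcn2 rose in MCD by 3.28 ± 0.29 on the log2 scale (SE), which is 9.74-fold (limma, adjusted p = 0.000441), and this was the 13th smallest p of all genes tested. It also rose in HGPP, by 1.86 ± 0.21 or 3.64-fold (limma, adjusted p = 0.00145). With median-of-ratios scaling the log2 differences were 2.87 and 1.51, and both stayed past the threshold of 0.05. Over all alternative settings the adjusted p reached at most 0.0436 for MCD and 0.0367 for HGPP. In HGPP it was lower than in MCD by 1.42 ± 0.27 on the log2 scale, 2.68-fold, with limma's unadjusted p of 0.000404 and an adjusted p of 0.129, which did not pass. Without MCD replicate 1 the difference was -1.64 and passed (limma, adjusted p = 0.0147, in a range of 0.0147 to 0.608 over all alternatives). Neutrophils store lipocalin 2 in their granules and stimulated macrophages make it, and marker levels of both cell types are given below.

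**Figure D2:**
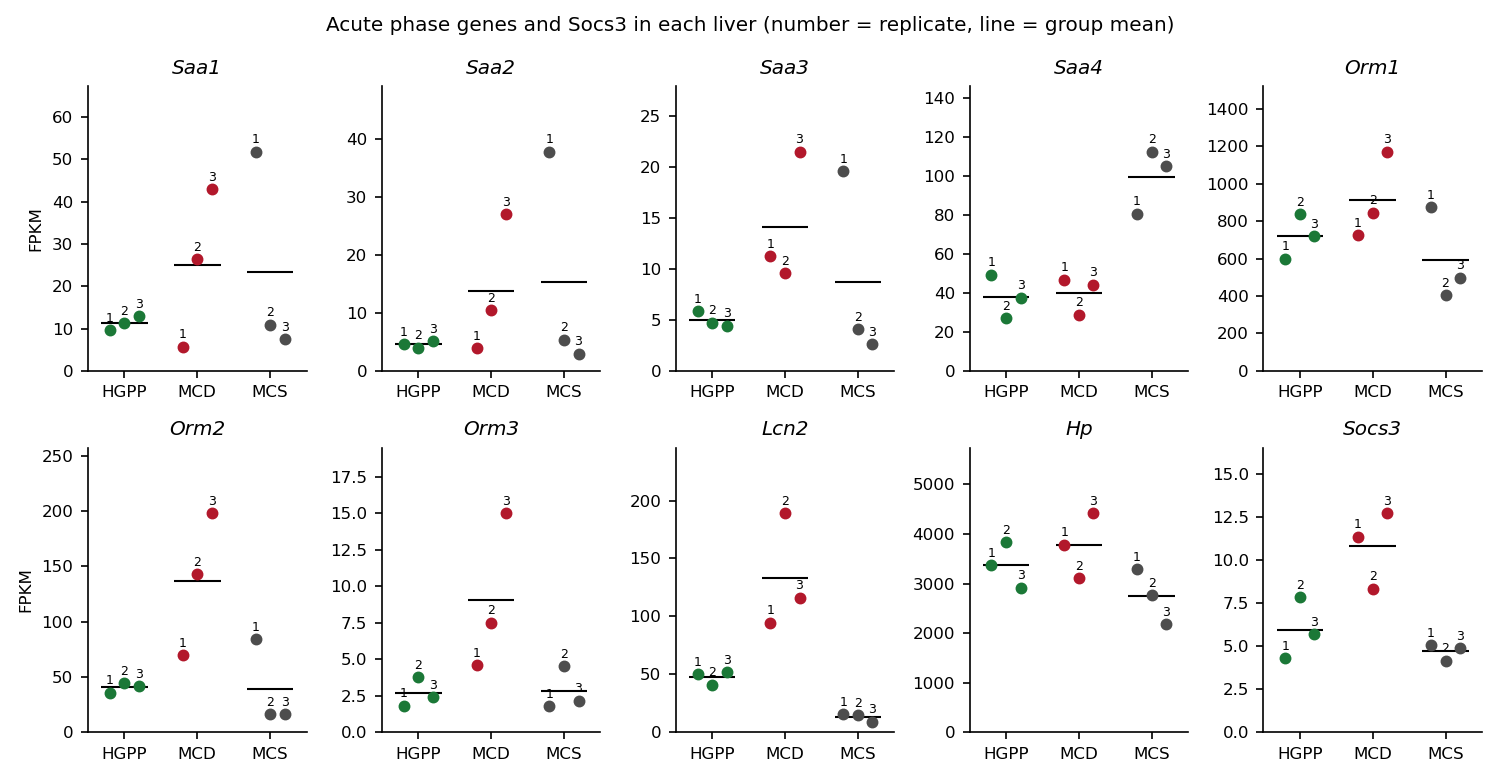
FPKM of each member in each liver (y axis, linear, from 0), with HGPP, MCD and MCS livers from left to right, replicate numbers above the points and the group mean as a line. Lcn2 has 3 separate groups, Saa4 is low in both deficient-diet groups, and MCS replicate 1 is the highest MCS liver for Saa1, Saa2, Saa3, Orm1 and Orm2.

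The orosomucoids differed in size of response. Orm2 measured 35.8, 44.4 and 41.9 FPKM in HGPP livers, 69.6, 143 and 198 FPKM in MCD livers and 84.5, 16.6 and 16.6 FPKM in MCS livers. The HGPP livers were close together and below every MCD liver, and MCS replicate 1 lay above the lowest MCD liver. Orm2 rose in MCD against MCS by 2.13 ± 0.59 on the log2 scale (4.37-fold, limma, adjusted p = 0.0293). The call was lost with median-of-ratios scaling (1.71, adjusted p = 0.109, in a range of 0.00909 to 0.212 over all alternatives), and also when MCS replicate 2 (1.74) or 3 (1.74) or MCD replicate 2 (2.03) or 3 (1.80) was left out. Without MCS replicate 1 the difference was 2.91. In HGPP against MCS the difference was 0.50 ± 0.53 and did not pass (limma, adjusted p = 0.525), while without MCS replicate 1 it was 1.28 and passed (adjusted p = 0.00321, in a range of 0.00321 to 0.908). Against MCD, the HGPP level was lower by 1.63 ± 0.34 on the log2 scale, 3.09-fold, with limma's unadjusted p of 0.000866 and an adjusted p of 0.150. Without MCD replicate 1 it was -2.05 and passed (limma, adjusted p = 0.00553, in a range of 0.00553 to 0.619).

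Orm3 was the least abundant member in each group, with 19 to 152 fragments per library. Its levels were 1.84, 3.80 and 2.39 FPKM in HGPP livers, 4.62, 7.51 and 15 FPKM in MCD livers and 1.78, 4.55 and 2.16 FPKM in MCS livers. All MCD livers were above all livers of the other groups, the lowest by little. Orm3 rose in MCD against MCS by 1.59 ± 0.45 on the log2 scale (3.01-fold, limma, adjusted p = 0.0305). With median-of-ratios scaling it was 1.18 and no longer passed (adjusted p = 0.102, in a range of 0.00895 to 0.190), and it did not pass when MCS replicate 1 (1.33) or 3 (1.46) or MCD replicate 2 (1.64) or 3 (1.15) was left out. HGPP differed from MCS by -0.02 ± 0.37, and was lower than MCD by 1.62 ± 0.42 on the log2 scale, 3.06-fold (limma, unadjusted p = 0.00332, adjusted p = 0.196). Without MCD replicate 1 this difference was -2.01 and passed (limma, adjusted p = 0.0232, in a range of 0.0232 to 0.705).

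Orm1, the main orosomucoid of the liver, was 599, 836 and 719 FPKM in HGPP livers, 725, 845 and 1170.4 FPKM in MCD livers and 874, 405 and 498 FPKM in MCS livers. The groups overlapped through MCS replicate 1, and no comparison passed: the log2 differences were 0.68 ± 0.32 for MCD against MCS, 0.34 ± 0.28 for HGPP against MCS and -0.33 ± 0.27 for HGPP against MCD, with limma's adjusted p of 0.145, 0.397 and 0.598. Orm2 made up 5.38% ± 0.318 of the summed orosomucoid FPKM in HGPP livers, 12.5% ± 3.25 in MCD livers and 5.31% ± 3.05 in MCS livers (SD, n = 3 each). The 8.80% of MCS replicate 1 was above the lowest MCD value of 8.71%, so these shares overlapped between MCD and MCS, while the HGPP shares, 5.02% to 5.63%, were below that of every MCD liver.

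The inducible serum amyloids varied widely between livers within MCD and within MCS. Saa1 measured 9.70, 11.2 and 12.9 FPKM in HGPP livers, 5.72, 26.5 and 42.9 FPKM in MCD livers and 51.8, 10.9 and 7.44 FPKM in MCS livers. Saa2 measured 4.64, 4.01 and 5.09 FPKM in HGPP livers, 3.90, 10.5 and 27.0 FPKM in MCD livers and 37.8, 5.39 and 3.0 FPKM in MCS livers. Both genes were high in the same 3 livers, MCS replicate 1 and MCD replicates 2 and 3, and even across the HGPP livers. The highest value was 1.33 times the lowest in HGPP, 7.49 times in MCD and 6.96 times in MCS for Saa1, and 1.27, 6.92 and 12.6 times for Saa2. The log2 difference of MCD against MCS was 0.21 ± 0.78 for Saa1 and 0.28 ± 0.87 for Saa2, and both changed sign with median-of-ratios scaling (-0.21 and -0.14). Neither gene passed in any comparison of all livers. Against MCD, the log2 level in HGPP differed by -0.73 ± 0.59 for Saa1 and by -1.17 ± 0.55 for Saa2, with limma's adjusted p of 0.592 and 0.381. Without MCD replicate 1 these differences were -1.58 and -1.86 and passed (adjusted p = 0.0161 and 0.0260, in ranges of 0.0161 to 0.963 and 0.0260 to 0.837 over all alternatives), so that liver decided the call.

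Saa3, the form that macrophages also make, measured 5.86, 4.74 and 4.43 FPKM in HGPP livers, 11.3, 9.56 and 21.5 FPKM in MCD livers and 19.5, 4.08 and 2.62 FPKM in MCS livers. The HGPP livers were all below the MCD livers, and MCS replicate 1 alone lay among the MCD values. The difference of MCD against MCS was 1.14 ± 0.62 on the log2 scale and did not pass (limma, adjusted p = 0.201). Without MCS replicate 1 it was 1.98 and passed (adjusted p = 0.0192, in a range of 0.0192 to 0.555). HGPP was 1.39 ± 0.30 lower than MCD on the log2 scale, 2.63-fold, with limma's unadjusted p of 0.00112 and an adjusted p of 0.161. Without MCD replicate 1 it was -1.51 and passed (limma, adjusted p = 0.0438, in a range of 0.0438 to 0.619). The HGPP level differed from MCS by -0.26 ± 0.60, or by 0.59 without MCS replicate 1, and passed in neither case.

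Saa4, the constitutive amyloid, was lower in both deficient-diet groups than in MCS. It measured 49.4, 26.9 and 37.6 FPKM in HGPP livers, 46.9, 28.9 and 44.2 FPKM in MCD livers and 80.7, 113 and 105 FPKM in MCS livers. Every liver on the deficient diet was below every MCS liver. Saa4 fell in MCD against MCS by 1.33 ± 0.24 on the log2 scale, 2.51-fold (limma, adjusted p = 0.00581), and in HGPP against MCS by 1.42 ± 0.23, 2.67-fold (limma, adjusted p = 0.00514). With median-of-ratios scaling the log2 differences were -1.75 and -1.77 and both passed. Between HGPP and MCD the difference was -0.09 ± 0.28, and its sign changed when single livers were left out. In MCS replicate 1, where the inducible amyloids were highest, Saa4 was the lowest of its group. Saa4 made up 63.7% ± 6.85 of the summed amyloid FPKM in HGPP livers, 46.7% ± 19.7 in MCD livers and 72.0% ± 25.7 in MCS livers (SD, n = 3 each), with overlap between all groups. These shares rest on the length used: with the principal transcript of each gene they were 29.7% ± 6.23 in HGPP, 18.9% ± 12.9 in MCD and 45.8% ± 27.1 in MCS livers, again with overlap.

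Socs3, whose protein blocks gp130 signalling, measured 4.30, 7.86 and 5.71 FPKM in HGPP livers, 11.4, 8.35 and 12.7 FPKM in MCD livers and 5.07, 4.16 and 4.90 FPKM in MCS livers. The MCD livers were all above the rest, and the HGPP livers overlapped the MCS livers. Socs3 rose in MCD against MCS by 1.17 ± 0.23 on the log2 scale (2.24-fold, limma, adjusted p = 0.00830). It passed with every single liver left out. With median-of-ratios scaling the difference was 0.75 and with quantile normalization 0.85, and neither passed (adjusted p = 0.0734 and 0.0755, in a range of 0.00663 to 0.0755). In HGPP it was lower than in MCD by 0.87 ± 0.27 on the log2 scale, 1.83-fold (limma, unadjusted p = 0.00985, adjusted p = 0.248). HGPP differed from MCS by 0.30 ± 0.23 with the deposited values and by -0.05 with median-of-ratios scaling.

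Hp was the most abundant member, and its log2 level varied least of the 10 over the 9 livers pooled (root mean square deviation of 0.28). It measured 3375, 3829.7 and 2918 FPKM in HGPP livers, 3785, 3114 and 4417 FPKM in MCD livers and 3289, 2766 and 2176 FPKM in MCS livers. The groups overlapped in every comparison. The log2 differences were 0.46 ± 0.28 for MCD against MCS, 0.31 ± 0.23 for HGPP against MCS and -0.15 ± 0.30 for HGPP against MCD, with limma's adjusted p of 0.252, 0.366 and 0.850. With median-of-ratios scaling the first was 0.04 and the second -0.04. By mean level, Hp and after it Orm1 led the members in all 3 groups, with ranges apart from those of the next gene, and Orm3 came last, both with the deposited FPKM and with levels per length of the principal transcript. The order between them turned with the length. In HGPP livers Saa4 stood above Saa1 with the deposited FPKM (means of 38.0 and 11.3), with ranges apart. Per principal transcript Saa4 stood below Saa1 (38.0 and 45.9), with overlapping ranges of neighbours.

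Counted together, 4 of the 10 members rose in MCD against MCS (Lcn2, Orm2, Orm3, Socs3) and 1 fell (Saa4), while 19.6% of all genes tested rose and 2.55% fell. Without overlap between groups, 3 members were higher (Orm3, Lcn2, Socs3), against 38.1% of all genes. With median-of-ratios or quantile scaling only Lcn2 and Saa4 passed, and with no filter on low genes only Lcn2 did. In HGPP against MCS, which shares its MCS livers with the first comparison, Lcn2 rose and Saa4 fell, against 16.4% of all genes that rose and 2.48% that fell, and with no filter Saa4 did not pass. In HGPP against MCD no member passed limma's adjusted p, nor did any with limma's voom on recovered fragments, and 0.0217% of all genes fell. At an unadjusted p under 0.05, 5 members were lower (Saa3, Orm2, Orm3, Lcn2, Socs3), against 9.69% of all genes. The same 5 did not overlap between the groups, against 11.3% of all genes, and 4 of them, all but Socs3, were past the study's thresholds (a log2 difference beyond 1 with an unadjusted p under 0.05), against 5.17%. The median log2 difference of the members in this comparison was -1.02, against -0.07 for all genes, and 0.91 against 0.40 in MCD against MCS. Without MCD replicate 1, 6 members passed in HGPP against MCD (Saa1, Saa2, Saa3, Orm2, Orm3, Lcn2), as did 443 of all genes tested, against 3 with all livers. All 6 but Saa3 had their lowest MCD value in the liver left out, so these calls are no support for a difference.

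**Figure D3:**
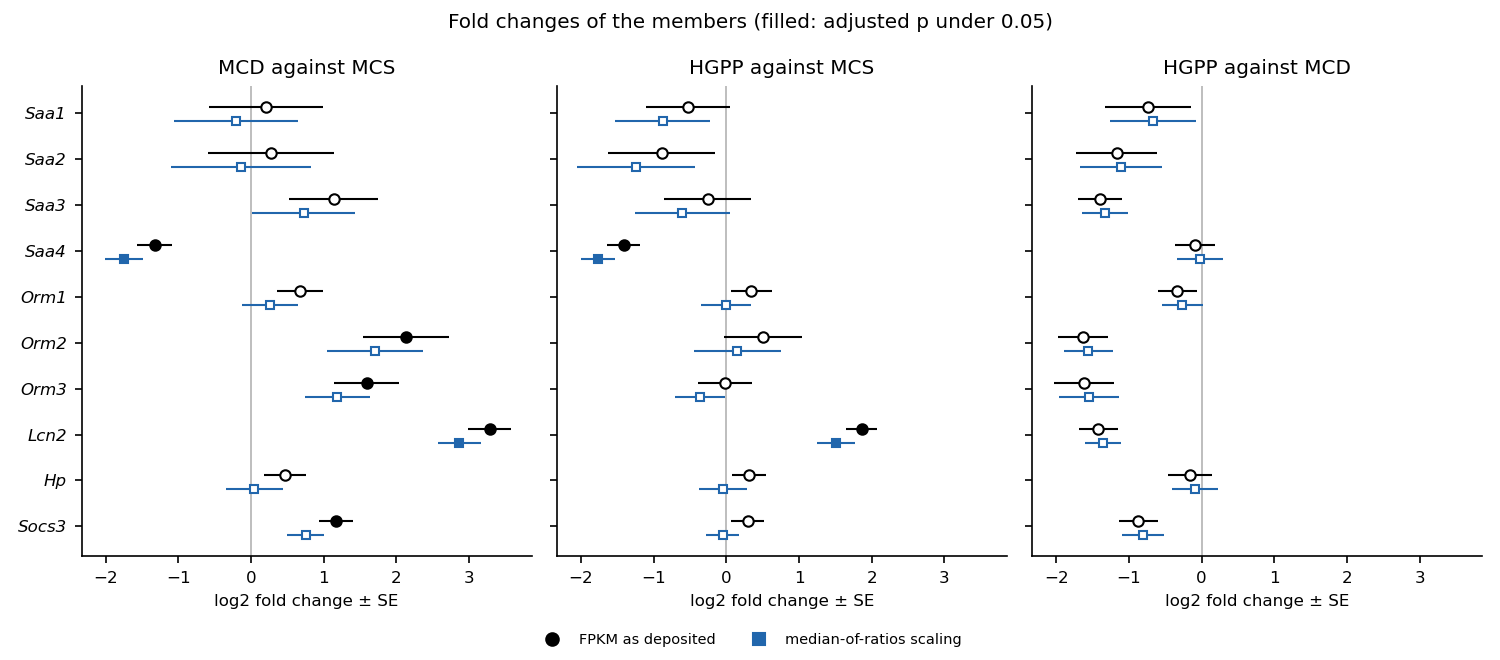
Log2 fold change of each member with its SE (x axis) in the 3 comparisons, for the deposited FPKM (black circles) and after median-of-ratios scaling (blue squares), with filled symbols where the adjusted p was under 0.05. Lcn2 and Saa4 are filled under both scalings in the first 2 panels. Orm2, Orm3 and Socs3 are filled in the first panel only, and there under the deposited values only. No symbol is filled in the third panel.

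Other secreted acute phase proteins did not follow the members that rose. Of 22 further positive acute phase genes, 1 rose and 11 fell in MCD against MCS, and 1 rose and 7 fell in HGPP against MCS. The gene that rose in both was Il1rn, which encodes the interleukin 1 receptor antagonist (log2 differences of 1.78 ± 0.29 and 1.51 ± 0.24). The fibrinogen chains fell in both: in MCD and HGPP the log2 differences were -1.84 and -1.17 for Fga, -1.36 and -0.95 for Fgg and -1.20 and -0.90 for Fgb. Fgl1, a fibrinogen-like protein secreted by hepatocytes, fell by 0.91 and 1.14, Crp, C-reactive protein, by 1.35 and 0.74, and Itih4 by 1.21 and 0.99. The antiprotease Serpina3m fell in MCD by 1.69 and had a difference of -0.31 in HGPP that did not pass. With median-of-ratios scaling, 13 of the 22 fell in MCD and 9 in HGPP. Haptoglobin's counterpart for haem, Hpx (hemopexin), had 4943, 4375 and 4402 FPKM in HGPP, 3979, 6047 and 4121 FPKM in MCD and 3996, 3389.6 and 2321 FPKM in MCS and did not pass. In HGPP against MCD none of the 22 passed, and the median log2 difference was 0.22, opposite in sign to that of the members.

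Negative acute phase genes, those that hepatocytes reduce during inflammation, gave few calls. None of 9 passed in MCD against MCS, where all 9 differences were below 0 with a median of -0.33, while Serpina6 passed there with median-of-ratios scaling (-0.93, limma, adjusted p = 0.0394). In HGPP against MCS, Serpina6, the corticosteroid carrier, fell by 1.11 ± 0.19 and Ttr, transthyretin, by 0.72 ± 0.22 on the log2 scale, and Ttr did not pass with median-of-ratios scaling (limma, adjusted p = 0.0761). Albumin differed by -0.94 ± 0.44 in MCD against MCS and did not pass (limma, adjusted p = 0.143). All 10 hepatocyte marker genes had negative differences in MCD against MCS, and 3 fell (Tdo2 by 1.33, Cps1 by 1.23 and Fgb), as did Fgb, Ttr and Hpd in HGPP against MCS. Their summed level was 39389 to 50271 FPKM in HGPP, 26128 to 54550.1 FPKM in MCD and 59192 to 72719 FPKM in MCS. Albumin made up most of this sum, with 29927 to 40114.5 FPKM in HGPP, 17604 to 42491 FPKM in MCD and 44570 to 57774 FPKM in MCS. Albumin, Ttr and Fgb also belong to the acute phase lists, so the sum is not independent of them. In whole liver, fewer cells of a type and less RNA per cell cannot be told apart.

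**Figure D4:**
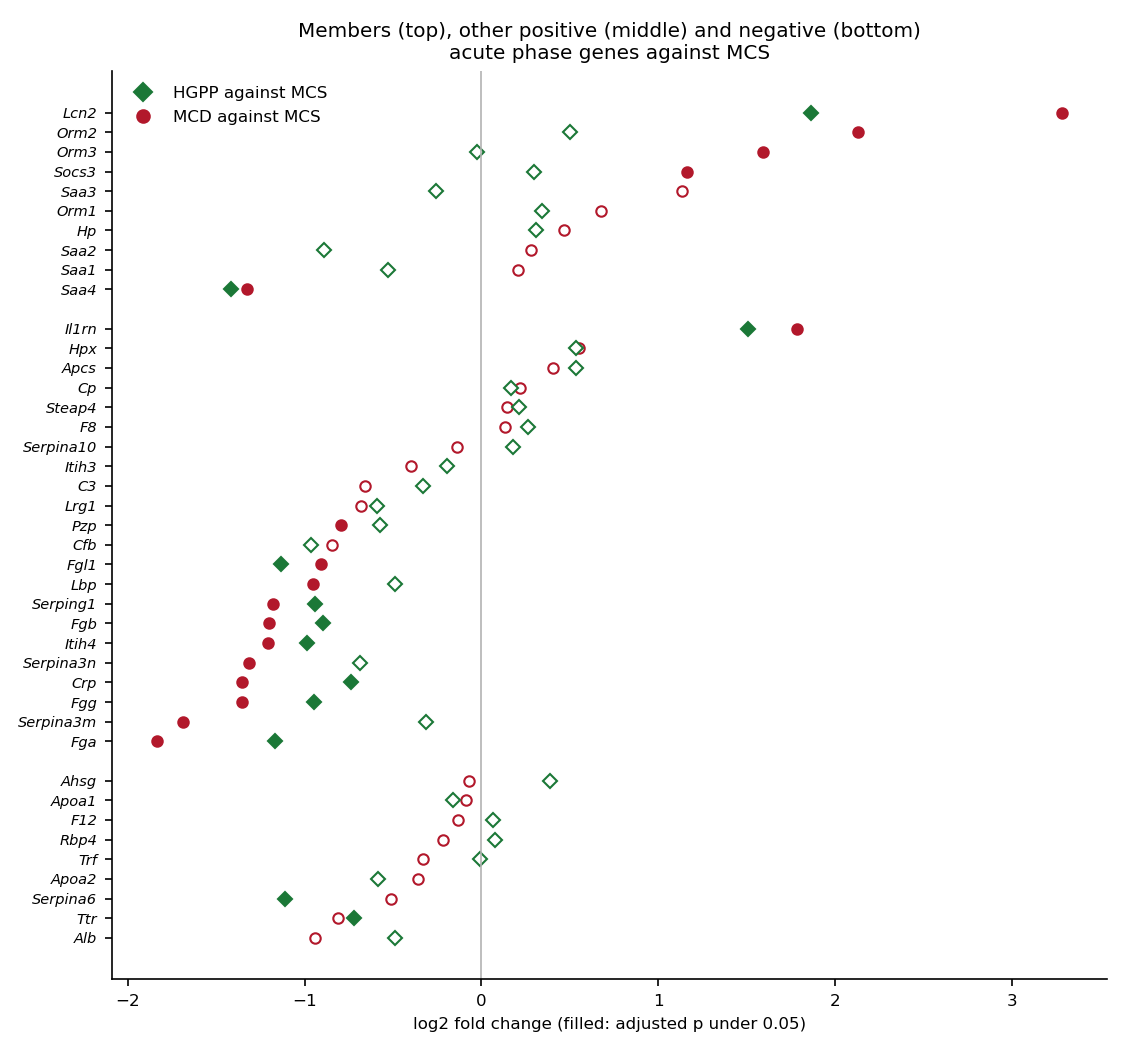
Log2 fold change against MCS (x axis) of the 10 members, the other positive and the negative acute phase genes, in HGPP (green diamonds) and MCD (red circles), filled where the adjusted p was under 0.05. In MCD, Lcn2, Orm2, Orm3 and Socs3 stand to the right of 0, while Saa4, the fibrinogen chains, Crp and Itih4 stand to the left of it.

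Genes of the signalling upstream of the members were measured too. Of 10 genes kept from the gp130 list, 4 rose in MCD against MCS and 3 in HGPP against MCS. The list also held Il10rb and Il22ra1, chains of the interleukin 22 receptor and not of a receptor with gp130. Clcf1, a gp130 cytokine, rose by 3.32 ± 0.35 in MCD and 2.36 ± 0.37 in HGPP, and Osmr, the oncostatin M receptor, by 1.18 and 1.20. Il10rb, a shared chain of the interleukin 10 and 22 receptors, rose by 2.09 and 1.20, and Osm, oncostatin M, rose in MCD by 1.74. With median-of-ratios scaling Osmr and Osm no longer passed, while Lifr, the leukaemia inhibitory factor receptor, fell by 1.09 in MCD and 0.88 in HGPP (limma, adjusted p = 0.00984 and 0.0187). Il6 itself was at 0 in 6 of the 9 livers and at most 0.131 FPKM, in MCS replicate 1. The hepatocyte's receptor chains Il6ra and Il6st did not pass, with log2 differences of -0.95 and 0.32 in MCD against MCS, but Il6ra passed with median-of-ratios scaling (-1.36, limma, adjusted p = 0.0245). Of 11 JAK, STAT and C/EBP genes, 1 rose and 1 fell in MCD against MCS, and 3 rose in HGPP against MCS. Stat3 did not pass with the deposited values (-0.60 and -0.26) but fell by 1.02 in MCD with median-of-ratios scaling (limma, adjusted p = 0.0098). The kinase Tyk2 rose in MCD by 0.96 and Jak1 in HGPP by 0.73, neither passing with median-of-ratios scaling, and Cebpa fell in MCD by 0.94. Cebpb and Cebpd, C/EBP factors of the acute phase, rose in HGPP against MCS by 1.16 and 1.48 and had differences of 1.23 and 0.66 in MCD that did not pass, and Cebpb did not pass with median-of-ratios scaling.

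In the interleukin 1, tumour necrosis factor and NF-kB list of 18 genes, 7 rose and 1 fell in both comparisons with MCS. With median-of-ratios scaling 6 rose and 1 fell in MCD, while 2 rose and 1 fell in HGPP. Tnf, tumour necrosis factor, measured 0.503, 0.458 and 0.467 FPKM in HGPP livers, 2.97, 3.29 and 4.51 FPKM in MCD livers and 0.194, 0.0781 and 0.122 FPKM in MCS livers. As with Lcn2, the 3 groups were apart and HGPP lay between the others. Tnf rose in MCD by 4.0 ± 0.32 and in HGPP by 1.34 ± 0.30, and it was the only gene of the 13 other lists that passed in HGPP against MCD, where its log2 difference was -2.66 ± 0.27 (limma, adjusted p = 0.0145). That call was lost under 8 of 17 alternatives, which were no filter, quantile scaling, voom and leaving out any one of MCD replicates 2 and 3 and the 3 HGPP livers (adjusted p from 0.00466 to 0.152 over all alternatives, with the difference below 0 in each). With median-of-ratios scaling Tnf did not pass in HGPP against MCS. Il1b rose in MCD by 2.56 ± 0.45 and had a difference of -2.13 ± 0.51 in HGPP against MCD that did not pass. Il1r2, the decoy receptor of interleukin 1, rose in MCD by 1.89. The NF-kB subunits Nfkb2 and Relb rose in MCD by 1.71 and 2.62 and in HGPP by 1.39 and 1.69. Il1rap, the accessory chain of the interleukin 1 receptor, was the gene that fell, by 1.35 in MCD and 1.32 in HGPP.

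Among other brakes of the pathway, few genes passed. Of 11 genes, Ptpn6, a phosphatase of leukocytes, rose in MCD by 1.34 ± 0.28 and Socs5 by 1.12 ± 0.32, and Socs5 rose in HGPP by 1.06. None of the 11 passed with median-of-ratios scaling. Socs2, induced by growth hormone, measured 2.08, 3.19 and 2.79 FPKM in HGPP, 6.44, 7.10 and 14.1 FPKM in MCD and 3.67, 2.22 and 6.76 FPKM in MCS. All HGPP livers were below all MCD livers, but the difference of -1.67 ± 0.32 did not pass (limma, adjusted p = 0.129). Of 7 genes of the glucocorticoid response, which supports acute phase transcription, Sgk1 rose in MCD by 1.89 and in HGPP by 1.74, and Tat rose in HGPP by 0.95, not so with median-of-ratios scaling, under which Fkbp5 fell in MCD by 1.23.

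Of 10 receptors and clearance partners of the secreted proteins that were tested, 5 rose in MCD and 3 in HGPP, each against MCS. Hmox1, haem oxygenase, which degrades the haem that haptoglobin and hemopexin bring in, rose by 2.60 ± 0.43 in MCD and 1.60 ± 0.21 in HGPP. Cd163, the macrophage receptor for haptoglobin bound to haemoglobin, measured 4.96, 5.04 and 4.49 FPKM in HGPP, 2.28, 1.89 and 2.82 FPKM in MCD and 4.20, 1.55 and 1.64 FPKM in MCS. It was highest in the HGPP livers and passed in no comparison, with a log2 difference of 1.04 ± 0.23 in HGPP against MCD (limma, adjusted p = 0.161). Of the receptors known to bind serum amyloid A, Tlr2 rose in MCD by 2.13, Fpr2 by 2.16 and Tlr4 by 1.63, whereas Scarb1 (0.02) and Cd36 (1.17) did not pass there. Cd36 rose in HGPP by 1.05 and Tlr2 by 1.46, neither with median-of-ratios scaling. Slc22a17, which encodes a lipocalin 2 receptor, rose in MCD by 1.25. Fpr2 and Slc22a17 did not pass with median-of-ratios scaling, under which Lrp1, a clearance receptor, fell in HGPP by 0.79. Lrp2, another lipocalin 2 receptor, was not above 0.0245 FPKM in any liver.

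Markers of neutrophils and macrophages, cells that can make lipocalin 2 or Saa3, were summed in each liver. The summed level of 13 neutrophil markers was 10.9, 22.6 and 18.5 FPKM in HGPP livers, 48.3, 86.2 and 148 FPKM in MCD livers and 10.5, 9.05 and 7.37 FPKM in MCS livers. The MCD livers were apart from the others. Of 9 neutrophil markers kept, 7 rose in MCD, and 6 with median-of-ratios scaling. Among the 7 were Retnlg (by 3.54), S100a8 (3.50 ± 0.35), S100a9 (3.19) and Csf3r, the receptor for the neutrophil growth factor (3.03 ± 0.30). Of the granule genes made by neutrophil precursors, Elane, Mpo and Ltf did not exceed 0.174 FPKM in any liver, while Camp reached 0.553 and 1.41 FPKM in MCD replicates 2 and 3 and Ngp at most 0.588 FPKM, both being listed at 0 in the 3 MCS livers, and neither passed. Ly6g, a surface marker of mature neutrophils, was at 0 in 7 of 9 livers and at most 0.127 FPKM. The summed level of 10 macrophage markers was 243, 398 and 233 FPKM in HGPP livers, 237, 1210 and 777 FPKM in MCD livers and 210, 63.6 and 66.5 FPKM in MCS livers, and 7 of the 10 rose in MCD and 7 in HGPP, 5 and 2 with median-of-ratios scaling. Itgax rose by 4.16 in MCD and 1.79 in HGPP, Lyz2 by 3.51 and 1.78, Cd68 by 3.39 and 2.07 and Cd5l by 2.31 and 1.56, and Marco rose in MCD by 2.65. This sum, in which Lyz2 alone was 645 FPKM in MCD replicate 2, is set beside Saa3 as a description only. MCD replicate 2 had the highest sum and the lowest Saa3 value of the MCD livers. MCS replicate 1 had both the highest sum and the highest Saa3 value of the MCS livers. Fat cell markers did not exceed 0.301 FPKM in sum. The summed level of 13 mitochondrially encoded genes was 46951 to 55576 FPKM in HGPP, 52687 to 143202 FPKM in MCD and 36800 to 62185 FPKM in MCS, and was highest in MCD replicate 3. Of these, mt-Co2, mt-Nd6 and mt-Co3 rose in MCD, none with median-of-ratios scaling. MCD replicate 3 also had the lowest RNA integrity value that the study lists. The part of these cells and of RNA quality in the members' levels was not tested.

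**Figure D5:**
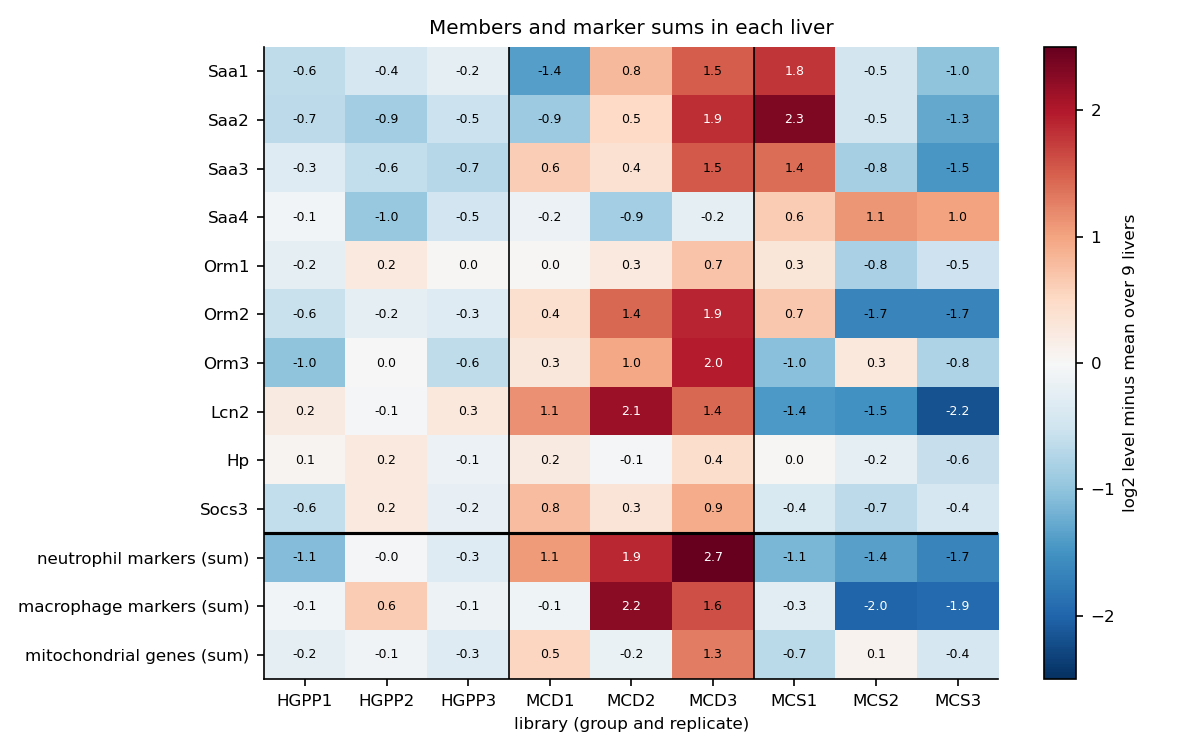
Log2 level of each member in each liver, as log2(FPKM + 0.1) minus its mean over the 9 livers, with log2 of 3 marker sums treated likewise below the line. Red is above and blue below the mean. MCS replicate 1 is red for Saa1, Saa2 and Saa3, MCD replicate 1 is blue for Saa1 and Saa2, and the neutrophil sum is red in the 3 MCD livers.

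Profiles were also compared over the 9 livers, as the root mean square difference of centred log2 levels, where 0 means the same profile. These are descriptions over livers that share groups. Among the members, Saa1 and Saa2 (0.35) were close relative to their own distances of 1.04 and 1.21 from a flat profile. Hp and Orm1 were nearer to each other (0.29), but Hp was as near to a flat profile (0.28), so this value says little. Saa3 was nearer to Orm2 (0.57) than Orm2 was to either other orosomucoid. Among 10003 other genes with a mean of at least 1 FPKM, the nearest to Saa1 were Gbp2 (0.52), Cxcl9 (0.53) and Calhm6, and those nearest to Saa2 were Cxcl9 (0.76), Ces1d and Gbp4. Those nearest to Saa3 were Gbp4 (0.51), Ctsw and Serpina3g. Saa4 had Il1rap (0.17), BC025446 and Slco1b2. Lcn2 had Pmaip1 (0.25), Csf2rb and Tlr13, Orm2 had H2-DMa (0.36), Rac2 and H2-DMb1, and Socs3 had Arl4d (0.20), Mrps18c and Nfkbil1. Orm3 had C7, Tcirg1 and mt-Co3, Orm1 had Pla2g6, Rpp40 and Cwc27, and Hp had Pym1, Nsrp1 and Hmg20b.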

How the data were processed

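RNA from 9 livers was sequenced. The values deposited by the authors are FPKM (fragments per kilobase, scaled to library size) for 21936 genes in 1 table. For trimming, alignment and counting the submitters' processing notes list featureCounts 2.0.0, STAR 2.7.7a and fastp 0.20.1, while the study's methods give Cutadapt and HTSeq. The genome build was not given in the sources used here. Exon lengths of GENCODE vM21 turned 98.13% of 115875 low values into whole fragments within 0.02, which gave library depth, and this annotation also gave symbols to 21817 genes.

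A gene was tested if its FPKM reached 0.1 in any 3 libraries. Pairs of groups were fitted by limma 3.58.1 in R 4.3.3 (lmFit and trended eBayes) to log2 values of FPKM plus 0.1, a scale that understates changes of low genes, and p-values were adjusted by Benjamini-Hochberg over all 13817 genes, at a threshold of 0.05. The fit was tested on simulated data. Software for tables and plots was matplotlib 3.10.9, numpy 2.4.6 and pandas 2.3.3 under Python 3.11.15. The alternatives were other pseudocounts, filters and scalings, TPM, 1 fit over all libraries, no trend, a replicate block, each library left out and, added after seeing the data, voom on recovered fragments and levels per length of the principal transcript. Depth limits precision most for Orm3, and p-values measure the spread between mice of 1 experiment.

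The 10 members and the 13 other gene lists were chosen with earlier results of these data known. Named were all members, up to 4 called genes by size per list and comparison, genes of highest mean where none was called, and the 3 genes of nearest profile per member. Alb, Camp, Cd163, Crp, Elane, Fkbp5, Hpx, Il6, Il6ra, Il6st, Lifr, Lrp1, Lrp2, Ltf, Ly6g, Mpo, Ngp, Scarb1, Slc22a17, Socs2 and Stat3 were named for their role or after their values were seen.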

Additional observations from a re-analysis of the deposited data

How the results depend on the processing

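Each group had 3 livers, and depth was lowest for Orm3. Of 510 values of single members under alternative settings, 458 kept their direction and side of the threshold, 20 lost and 8 gained significance and 24 changed sign. The number of members called in MCD against MCS (5) was 1 with no filter and 2 with median-of-ratios or quantile scaling. With single livers left out it was 3 to 5. Of all genes, 22.1% were called in this comparison in the main fit, 1.62% with no filter, 16.3% with median-of-ratios and 9.10% with quantile scaling. In HGPP against MCS (2) the members called numbered 1 with no filter and 2 to 3 with livers left out. The share of all genes was 18.8% in the main fit and 3.75% with no filter. In HGPP against MCD (0) members called numbered 0 to 6, with 6 only without MCD replicate 1, where 3.21% of all genes passed. With no filter 21936 genes were tested rather than 13817, and the cause of the loss was not tested. Called genes of the other lists numbered 53 in MCD against MCS (8 with no filter, 33 to 67 with livers left out), 39 in HGPP against MCS (4 with no filter, 24 with median-of-ratios, 19 with quantile scaling, 21 to 38 with livers left out) and 1 in HGPP against MCD (0 with no filter, quantile scaling or voom, 3 in 1 fit over all livers, 0 to 20 with livers left out). Members past the study's thresholds in HGPP against MCD numbered 4, and 4 to 6 with livers left out. Members without overlap numbered 5 in HGPP against MCD (5 to 8 with livers left out, 8 without MCD replicate 1). In MCD against MCS they numbered 3 (3 to 7, 7 without MCS replicate 1). Leaving out a liver can only keep or raise a count without overlap, so these ranges do not show that the counts are stable. The share of all genes without overlap was not counted with livers left out.

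Signs changed for differences that had not passed. With median-of-ratios scaling the log2 differences were -0.21 for Saa1 and -0.14 for Saa2 in MCD against MCS, and -0.0099 for Orm1, -0.043 for Hp and -0.052 for Socs3 in HGPP against MCS. Socs3 was at -0.011 there with quantile scaling, and Orm3 at 0.0067 with TPM and 0.012 with voom. With livers left out, MCD against MCS ranged from -0.39 to 1.05 for Saa1 and from -0.46 to 1.35 for Saa2. HGPP against MCS ranged from -1.08 to 0.31 for Saa1, -1.63 to 0.18 for Saa2, -0.84 to 0.59 for Saa3 and -0.30 to 0.37 for Orm3, and HGPP against MCD from -0.30 to 0.14 for Saa4. The cause was not tested. The replicate numbers are not said to pair mice, and the correlations of the deviations of same-numbered livers ran from -0.34 to 0.30 over 9 pairs. With a replicate block, 4 members passed in MCD against MCS (Orm2 did not, adjusted p = 0.0521), 2 in HGPP against MCS and 0 in HGPP against MCD, and 4 genes of the other lists passed in HGPP against MCD.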
